A study of Mus musculus with 7 samples.

Results

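The mRNAs of 10 RNA-binding regulators of local translation were followed in hippocampal synaptoneurosomes: Fmr1, Fxr1 and Fxr2 of the fragile X family, the cytoplasmic polyadenylation element-binding proteins Cpeb1 to Cpeb4, the Staufens Stau1 and Stau2, and Pura. They were taken by name, matched through their Ensembl identifiers, and all 10 of 10 were present among the 22248 genes of the deposited table. All 10 also passed the filter on low counts, which left 14654 genes for testing, with 166 to 4207 estimated counts behind each of their values in a library.

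The libraries came from wild-type C57Bl/6J female mice, and every group shares that strain, sex and genotype. AM6545, an antagonist of the cannabinoid receptor CB1 that enters the brain poorly, was given sub-chronically in 4 libraries (replicates B, D, E and F), and vehicle in 3 (replicates B, D and E). Dose, duration, age, and the number of mice behind a library are not stated, nor whether libraries came from separate animals, so the p-values measure the spread between these libraries, which may be technical. Synaptoneurosomes are pinched-off nerve endings that keep part of the postsynaptic compartment, obtained by fractionating brain tissue.

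Neurons store many mRNAs near synapses and translate them there when the synapse is active. The proteins studied here bind such mRNAs: FMRP and its paralogues associate with ribosomes and mostly hold translation back, CPEB proteins bind a U-rich element in the 3′ UTR and control the length of the poly(A) tail, and Staufens and Pur-alpha package mRNAs into granules that travel along dendrites. What was measured is the mRNA of these regulators in the synaptic fraction, not the proteins and not the mRNAs they bind to.

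Library totals ran from 19174649 to 25894733 estimated counts. Vehicle replicate B stood apart from the other 6 libraries. It had 9.83% mitochondrially encoded counts against 5.07% to 6.66% elsewhere, and it lay at 41.1 on a first principal component (34.2% of the variance) that held the others between -21.7 and 11.5. The libraries also differed in their trend with base composition: per 10 points of GC content, log2 values sloped by -0.12 to -0.03 in the AM6545 libraries and by 0.05 to 0.14 in the vehicle libraries. No marker of the neuron, hippocampal subfield, astrocyte, microglia, oligodendrocyte, endothelial and mural or choroid plexus lists was at 0. The 10 neuron markers summed to 9102 to 9844 CPM (estimated counts scaled to a library total of 1000000) under AM6545 and 8791 to 9118 under vehicle. Of the other cell types, 4 of 8 microglia markers were lower at an unadjusted p under 0.05 in edgeR, beside 8.7% of all genes. The 8 summed to 954 to 1080 CPM under AM6545 and 1040 to 1230 under vehicle. Also lower at that p were 2 of 8 astrocyte, 1 of 8 oligodendrocyte, 1 of 7 hippocampal subfield and 1 of 10 neuron markers. No marker of any list was higher at it. All 6 choroid plexus markers had a log2 fold change below 0 (420 to 2014 against 1506 to 2865 CPM) and 7 of 8 endothelial and mural markers had one above 0 (46.4 to 51.4 against 36.7 to 47.5 CPM), none with an unadjusted p under 0.05. These ranges overlap between the groups, and their part in the members' values was not tested.

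No member reached an adjusted p under 0.05 between AM6545 and vehicle (edgeR's quasi-likelihood test, Benjamini-Hochberg adjusted over all genes tested), beside 1 gene of 14654 that did, or 0.00682%. Before adjustment, 2 of the 10 members, Fmr1 and Cpeb1, had a p under 0.05, beside 14.6% of all genes tested in either direction and 5.86% in the higher direction. The same 2 were the only members whose groups did not overlap, both higher under AM6545, beside 6.63% of all genes. For 9 of 10 members, all but Pura, the log2 fold change was above 0, beside 51.4% of all genes. The members' median log2 fold change was 0.19, against 0.01 for all genes tested. All but Fxr2 also lay below the median GC content of the genes tested, 50.4%, and 7 of 10 were longer than the median of 2888 bases.

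**Figure D1:**
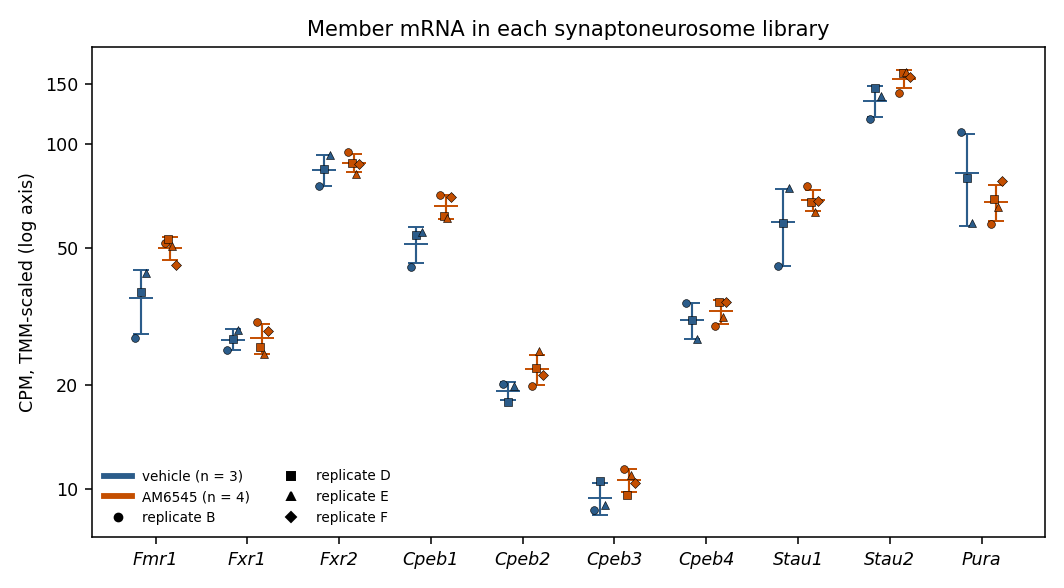
CPM of each member on a log axis in the 3 vehicle (blue) and 4 AM6545 (orange) libraries, with symbols for the replicates; horizontal ticks are group means and bars are SDs. Fmr1 and Cpeb1 are the members whose groups do not overlap, and vehicle replicate B holds the lowest value of 6 members and the highest of Pura.

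Among the fragile X family, Fmr1 was the member that differed most. Fmr1 encodes FMRP, a polyribosome-associated repressor of translation whose loss causes fragile X syndrome, and lies at chrX:68678541-68717963 on the plus strand (mm10, GENCODE M21). Its level was 51.7, 53.1, 50.8 and 44.6 CPM in AM6545 replicates B, D, E and F, and 27.5, 37.4 and 42.3 CPM in vehicle replicates B, D and E. Every AM6545 library was above every vehicle library, and vehicle replicate B was the lowest of the 7. The fold change was 1.40, a log2 difference of 0.49 ± 0.14 (SE), with an unadjusted p of 0.00399 and an adjusted p of 0.212 in edgeR. More synaptic particles of a kind and more mRNA per particle cannot be told apart in such bulk libraries.

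The size of the Fmr1 difference moved with the libraries and with base composition. Without vehicle replicate B the log2 difference was 0.33 ± 0.11 (SE; adjusted p 0.644, edgeR), and without vehicle replicate E it was 0.63 ± 0.14 (SE; adjusted p 0.0255), past the threshold. With limma-voom and quality weights the adjusted p was 0.0375, and with DESeq2 it was 0.0558. Fmr1 had a GC content of 37.5%, lower than nearly all other genes tested (1.07% were lower still). Once the libraries' trends with GC content and transcript length had been removed, the log2 difference was 0.26 ± 0.12 (SE; adjusted p 0.732, edgeR). The direction was higher under AM6545 in all 22 alternative fits. These fits reuse the same libraries, and with groups that do not overlap, leaving out a library could hardly turn the sign. That count is therefore no separate support.

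Fxr1 and Fxr2, the autosomal paralogues that bind FMRP and share its RNA-binding domains, gave no such difference. Fxr1 (chr3:34019943-34070322, plus strand) stood at 30.5, 25.8, 24.6 and 28.8 CPM under AM6545 and at 25.2, 27.2 and 29.0 CPM under vehicle. The groups overlapped throughout, with a log2 difference of 0.02 ± 0.11 (SE; adjusted p 0.954, edgeR) whose sign turned in 8 of 22 alternative fits. Fxr2 (chr11:69632990-69653297, plus strand) stood at 95.1, 88.2, 82.3 and 87.8 CPM under AM6545 and at 75.6, 84.9 and 92.9 CPM under vehicle. Again the groups overlapped, with a log2 difference of 0.06 ± 0.10 (SE; adjusted p 0.783, edgeR), and -0.01 without vehicle replicate B. The exons of Fxr1 share 178 bases with Dnajc19 on the opposite strand, and the use of strand in counting is not given in the sources used here.

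Measured per transcript length, Fmr1 thus held a larger part of its family under AM6545. Of the summed Fmr1, Fxr1 and Fxr2 level in counts per kilobase, Fmr1 made up 22.2%, 24.4%, 24.7% and 21.0% in the AM6545 libraries (23.1% ± 1.80, SD, n = 4) and 16.5%, 18.5% and 19.6% in the vehicle libraries (18.2% ± 1.56, SD, n = 3). The groups of this share did not overlap, with vehicle replicate B again lowest. Fxr2 made up 55.3% ± 0.770 (SD, n = 4) against 58.6% ± 1.43 (SD, n = 3), and Fxr1 21.7% ± 1.03 against 23.2% ± 0.126. The groups did not overlap in these shares either, both lower under AM6545. The shares of the 3 genes add up to the whole family, so they are not separate results, and no other gene family was compared. A share is free of library scaling, but Fxr2 has a GC content of 58.5% and Fmr1 of 37.5%, and the libraries' GC trends ran in opposite directions between the groups. The part of that trend in the shares was not tested.

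Fmr1 is spliced into several proteins, and its best-known choice is a 63-base exon near the middle of the coding sequence that lengthens an RNA-binding KH domain. The exon lies at chrX:68705861-68705923 (mm10, plus strand). It is shown because the deposited transcripts differ in it; capitals mark the exon and lower case the 15 bases of the neighbouring exons on either side in Fmr1-201.
Fmr1 63-base exon: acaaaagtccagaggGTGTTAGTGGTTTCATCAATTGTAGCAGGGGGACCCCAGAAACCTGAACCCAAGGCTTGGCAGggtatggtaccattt
Transcripts with this exon took 36.3%, 40.5%, 43.3% and 40.0% of the counts of the transcripts that span it under AM6545, and 34.0%, 46.1% and 45.2% under vehicle. The groups overlapped, with means of 40.0% ± 2.88 (SD, n = 4) and 41.8% ± 6.75 (SD, n = 3). A 75-base edge of a later exon was kept in 78.4% ± 4.76 (SD, n = 4) and 78.2% ± 3.87 (SD, n = 3) of these counts. Neither choice differed between the groups by more than the spread of the libraries. The most abundant transcript, Fmr1-206, lacks the 63-base exon and had a log2 difference of 0.54 ± 0.17 (SE; unadjusted p 0.0159, adjusted p 0.559, edgeR). The next, Fmr1-201, carries it and had 0.60 ± 0.54 (SE; adjusted p 0.808).

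Cpeb1 was the other member with separate groups. Cpeb1 binds the cytoplasmic polyadenylation element and, once phosphorylated, switches its targets from a short to a long poly(A) tail. The gene lies at chr7:81347026-81455465 on the minus strand. Its level was 71.4, 62.1, 61.2 and 70.2 CPM under AM6545 and 44.2, 54.5 and 55.7 CPM under vehicle. All 4 AM6545 libraries were above all 3 vehicle libraries, with vehicle replicate B lowest. The fold change was 1.29, a log2 difference of 0.36 ± 0.11 (SE), with an unadjusted p of 0.00688 and an adjusted p of 0.231 in edgeR. It was 0.27 ± 0.10 (SE; adjusted p 0.713) without vehicle replicate B, 0.42 ± 0.12 (SE; adjusted p 0.0522) without vehicle replicate E, and 0.23 ± 0.09 (SE; adjusted p 0.729) after the GC and length correction. Cpeb1 has a GC content of 47.5%, and 34.2% of the genes tested were lower.

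The 3 other CPEB genes form a subfamily of their own and bind RNA through a similar pair of domains; their mRNAs differed less. Cpeb2 (chr5:43233170-43289724, plus strand), whose protein slows translation elongation, stood at 19.9, 22.5, 25.2 and 21.5 CPM under AM6545 and 20.1, 17.9 and 19.9 CPM under vehicle. Only AM6545 replicate B lay inside the vehicle range, and the log2 difference was 0.21 ± 0.11 (SE; adjusted p 0.410, edgeR). Cpeb3 (chr19:37021291-37208601, minus strand), a prion-like repressor of AMPA receptor mRNAs, stood at 11.5, 9.62, 10.96 and 10.4 CPM under AM6545 and 8.70, 10.6 and 8.98 CPM under vehicle. Its groups overlapped, with a log2 difference of 0.17 ± 0.13 (SE; adjusted p 0.531). Cpeb4 (chr11:31872211-31935634, plus strand), which acts in cytoplasmic polyadenylation alongside Cpeb1, stood at 29.7, 34.8, 31.6 and 35.0 CPM under AM6545 and 34.7, 31.0 and 27.3 CPM under vehicle. The groups covered nearly the same range, with a log2 difference of 0.08 ± 0.11 (SE; adjusted p 0.763) that was -0.08 after the GC and length correction. Cpeb2 shares 137 exonic bases with Gm7854 and Cpeb3 shares 116 with A330032B11Rik, both antisense.

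**Figure D2:**
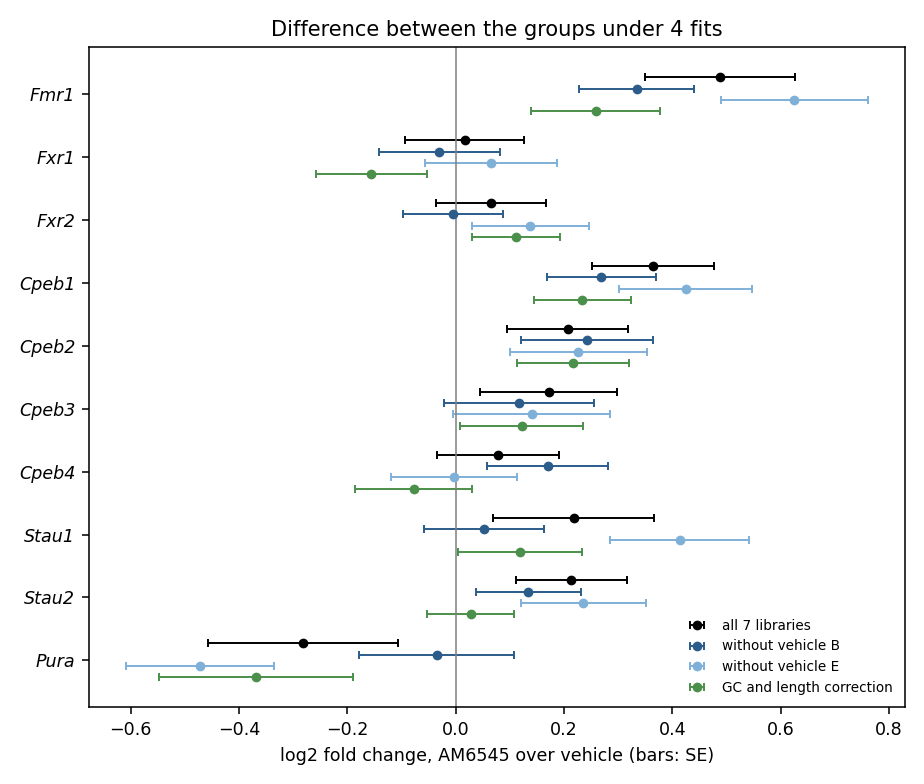
Log2 fold change of AM6545 over vehicle for each member, with SE bars, in the fit of all 7 libraries, without vehicle replicate B, without vehicle replicate E, and after the GC and length correction. Fmr1 and Cpeb1, whose groups do not overlap, stay above 0 in all 4 fits, which leaving out a library could hardly change. Pura ranges from -0.47 to -0.04 and Stau1 from 0.05 to 0.41.

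Cpeb2, Cpeb3 and Cpeb4 share a 24-base microexon that lies before the RNA-binding domains and is known to add a putative phosphorylation site. The 3 exons lie at chr5:43268869-43268892 (Cpeb2, plus strand), chr19:37105791-37105814 (Cpeb3, minus strand) and chr11:31918801-31918824 (Cpeb4, plus strand) in mm10. They are shown to let the genes be compared: 18 of the 24 positions are the same in all 3, and capitals mark the positions that are not.
Cpeb2 microexon: cAaggaGTtatgggcgAagACgag
Cpeb3 microexon: cCaggaGCtatgggcgGagACgag
Cpeb4 microexon: cAaggaCTtatgggcgAagGAgag
Despite this likeness, the share of counts given to transcripts with the exon differed widely between the 3 genes. These are counts of whole annotated transcripts, which in Cpeb4 also differ at their ends. The part of those ends in the share was not tested. Transcripts with the exon took between 91.3% and 100% of the Cpeb2 counts in every library, between 67.8% and 100% of the Cpeb3 counts, and between 13.4% and 35.2% of the Cpeb4 counts. In Cpeb4 the share was 21.2%, 26.4%, 35.2% and 21.4% in AM6545 replicates B, D, E and F, and 13.4%, 19.3% and 20.8% in vehicle replicates B, D and E. Every AM6545 library was above every vehicle library, although AM6545 replicates B and F were within 1 point of vehicle replicate E. The means were 26.1% ± 6.57 (SD, n = 4) and 17.9% ± 3.90 (SD, n = 3), and the difference of 8.20 points was 5.14 without AM6545 replicate E. The transcript that carries most of these counts, Cpeb4-202, also lacks a 51-base exon further upstream, and its log2 difference was 0.71 ± 0.25 (SE; unadjusted p 0.0235, adjusted p 0.559, edgeR).

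By transcript, Cpeb1-203, the most abundant one of Cpeb1, had a log2 difference of 0.45 ± 0.12 (SE; unadjusted p 0.00691, adjusted p 0.559, edgeR), and DESeq2 gave it an adjusted p of 0.0392. The next, Cpeb1-201, had -0.53 ± 0.28 (SE; adjusted p 0.661, edgeR).

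Over the members, 12 such choices within coding sequence are reported, and the 24-base exon of Cpeb4 was the 1 of these 12 in which the groups did not overlap. Among all transcripts of all genes, 8.57% of within-gene shares had groups that did not overlap. The rest included a 90-base exon of Cpeb2, at 46.7% ± 7.05 (SD, n = 4) and 28.5% ± 24.7 (SD, n = 3). That exon was listed at 0 in vehicle replicate B, and without this library the difference of 18.2 points was 3.90. An 18-base exon edge of Stau1 was kept in 60.3% ± 5.02 (SD, n = 4) and 58.4% ± 3.91 (SD, n = 3). The 4 choices of Fxr1 all overlapped, with an 87-base stretch at 28.0% ± 5.89 (SD, n = 4) and 21.3% ± 6.59 (SD, n = 3). These shares are sums over whole annotated transcripts that also differ elsewhere, not counts of reads across a junction, and they had no test of their own.

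**Figure D3:**
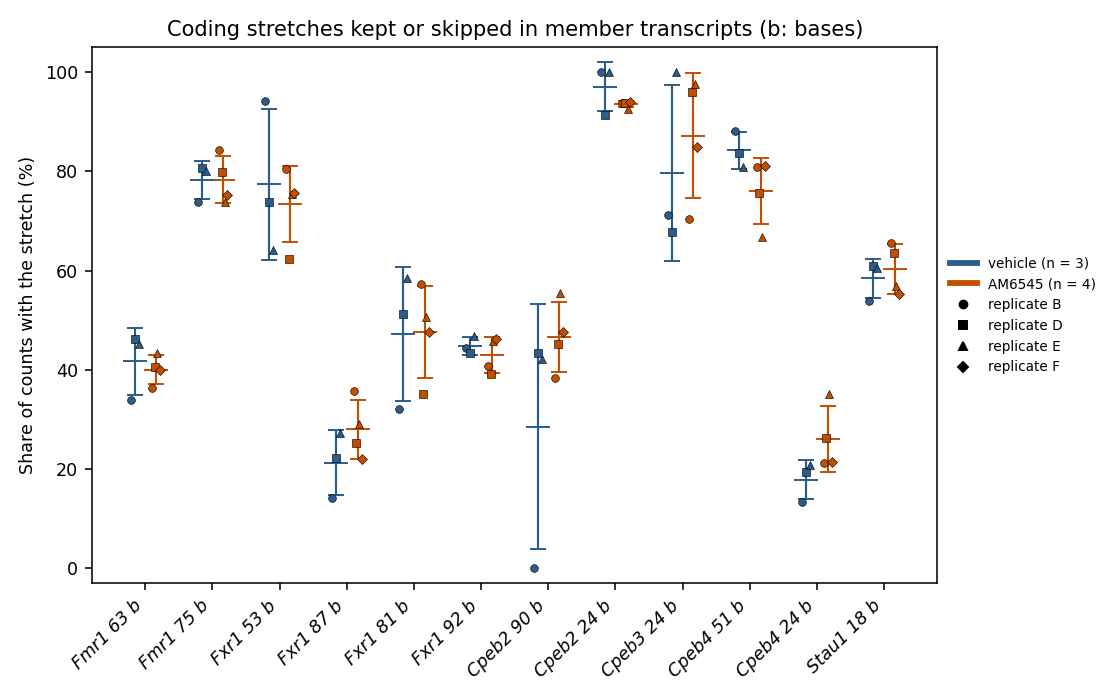
Share of counts, in percent, in transcripts that keep a named coding stretch, for 12 stretches (b is bases) in each library; ticks are means and bars SDs. The 24-base exon of Cpeb4 is the one whose groups do not overlap, and the 90-base exon of Cpeb2 is at 0 in vehicle replicate B.

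The test of transcript choice gave no member past the threshold. Of 8691 genes with at least 2 transcripts tested, 0.713% had an adjusted p under 0.05 (edgeR's diffSpliceDGE, Simes), and 0 of the 8 members in that test did, with 2 at an unadjusted p under 0.05, beside 3.92% of those genes. The 2 were Fxr1 (unadjusted p 0.000534, adjusted p 0.0682) and Stau1 (unadjusted p 0.000901, adjusted p 0.103). In both, a minor transcript was listed at 0 in all 3 vehicle libraries: Fxr1-206 had 87.5, 16.6, 30.4 and 0 counts in AM6545 replicates B, D, E and F, and Stau1-203 had 0, 10.7, 57.6 and 31.0. Leaving out single libraries moved both results. Fxr1 passed without AM6545 replicate F, where Fxr1-206 is 0 (adjusted p 0.00265), but its unadjusted p was 0.946, 0.944 and 0.982 without AM6545 replicate B, D or E, and 0.927 over transcripts with a mean of at least 50 counts. Stau1 passed without AM6545 replicate B (adjusted p 0.00368), but its unadjusted p was 0.920, 0.787 and 0.941 without AM6545 replicate D, E or F, and 0.811 over the transcripts with more counts. Stau2 also passed without AM6545 replicate B (adjusted p 0.00264), and its unadjusted p was 0.133 with all libraries. A minor Stau2 transcript had 53.5 counts in AM6545 replicate B, 0 in D, E and F, and 20.9 to 102 under vehicle. Which transcript the Stau2 result rests on was not tested. Cpeb4, whose share is described above, had an adjusted p of 0.99998.

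Of the members' 88 annotated transcripts, 71 had counts and 38 were tested one by one. None had an adjusted p under 0.05 in edgeR, beside 0.0177% of all 33962 transcripts tested. Before adjustment 7 of the 38 had a p under 0.05, beside 8.39% of all transcripts in either direction and 3.89% in the higher direction. All had a log2 fold change above 0, but 2 of them, at 0 in all vehicle libraries, passed the count filter through AM6545 alone, which fixed their direction. The 7 transcripts were Fmr1-206, Cpeb1-203, Cpeb4-202 and Stau2-214, each with more than 90 counts in every library, a Cpeb1 transcript with a retained intron (Cpeb1-207), and the 2 at 0 in vehicle, Fxr1-206 and Stau1-203.

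The Staufens bind double-stranded RNA and carry mRNAs into dendrites, and Stau1 also marks bound mRNAs for decay. Stau1 (chr2:166947549-166996299, minus strand) stood at 75.6, 67.9, 63.8 and 68.6 CPM under AM6545 and 44.5, 59.1 and 74.6 CPM under vehicle. The AM6545 libraries lay within the vehicle range but for replicate B, just above it, and the log2 difference was 0.22 ± 0.15 (SE; adjusted p 0.501, edgeR). It rested on vehicle replicate B, without which it was 0.05 ± 0.11 (SE), and it was 0.41 ± 0.13 (SE; adjusted p 0.0652) without vehicle replicate E and 0.12 ± 0.11 (SE) after the GC and length correction. Stau2 (chr1:16228674-16520112, minus strand), the neuron-enriched Staufen, stood at 141, 161, 162 and 156 CPM under AM6545 and 118, 145 and 138 CPM under vehicle. AM6545 replicate B was the one library inside the vehicle range, and the log2 difference was 0.21 ± 0.10 (SE; adjusted p 0.364, edgeR). It was 0.13 without vehicle replicate B and 0.03 after the GC and length correction.

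Pura, which encodes the single-stranded nucleic acid binder Pur-alpha found in kinesin-borne mRNA granules, was the one member lower under AM6545. It stood at 58.7, 69.3, 65.6 and 78.2 CPM under AM6545 and 108, 80.1 and 59.1 CPM under vehicle. The AM6545 libraries lay within the vehicle range but for replicate B, just below it, and vehicle replicate B was far the highest of the 7. The log2 difference was -0.28 ± 0.18 (SE; adjusted p 0.467, edgeR). Without vehicle replicate B it was -0.04 ± 0.14 (SE), and without vehicle replicate E it was -0.47 ± 0.14 (SE; adjusted p 0.0540).

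Vehicle replicate B thus lay at the edge of the range for most of these genes. It had the lowest value of the 7 libraries for 6 members (Fmr1, Fxr2, Cpeb1, Cpeb3, Stau1 and Stau2) and the highest for Pura. Without it the members' median log2 fold change was 0.13, against 0.19 with all 7 libraries, and 7 of 10 were above 0. Cpeb2 (0.24) and Cpeb4 (0.17) were then above their values with all 7 libraries, while the other members were lower, or for Pura less negative. Fmr1 and Cpeb1 then had unadjusted p-values of 0.00915 and 0.0206 in edgeR, beside 6.46% of all genes under 0.05. After the GC and length correction of all 7 libraries the median was 0.11, again with 7 of 10 above 0. Why this library differs was not tested.

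Compared per transcript length over all 7 libraries, Stau2 was the most abundant of the 10 and Cpeb3 the least. In counts per kilobase per 1000000 the means ran from 100.2 for Stau2 through 56.3 for Fxr2, 45.7 for Cpeb1, 40.0 for Stau1, 23.5 for Pura, 22.2 for Fxr1, 21.2 for Fmr1, 11.5 for Cpeb4 and 5.84 for Cpeb2 to 3.96 for Cpeb3. In all 7 libraries Stau2 exceeded Fxr2, Fxr2 exceeded Cpeb1, Fmr1 exceeded Cpeb4, Cpeb4 exceeded Cpeb2 and Cpeb2 exceeded Cpeb3. Pura, Fxr1 and Fmr1 could not be ordered: Pura was above Fxr1 in 5 of 7 libraries, Fxr1 above Fmr1 in 5 of 7, and their ranges overlapped. Within families, Fxr2 made up 56.7% ± 2.04 of the fragile X sum, Cpeb1 67.7% ± 4.22 of the CPEB sum, and Stau2 71.6% ± 3.16 of the Staufen sum (SD, n = 7 libraries).

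**Figure D4:**
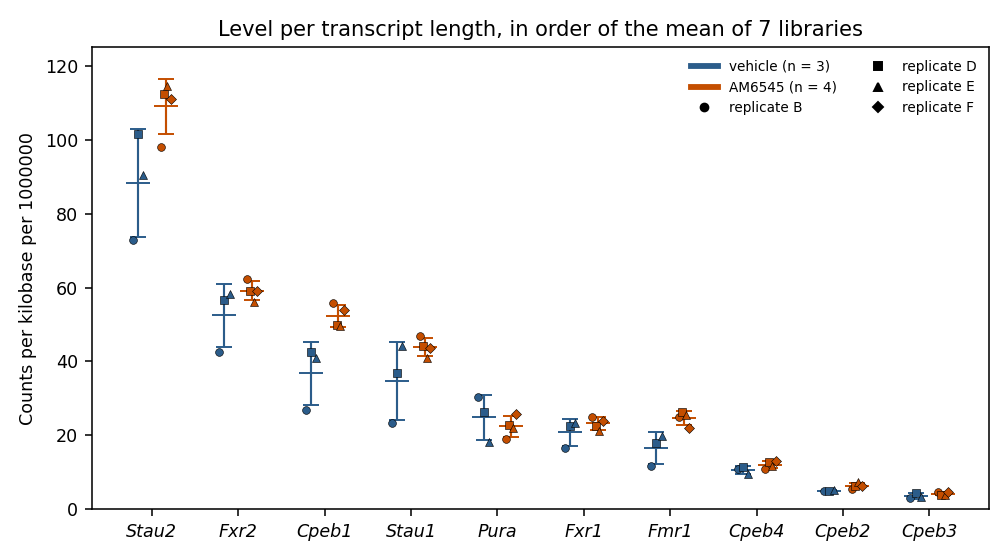
Level of each member in counts per kilobase per 1000000, on an axis from 0, in order of the mean over 7 libraries; vehicle is blue and AM6545 orange, ticks are means and bars SDs. Stau2 is highest at a mean of 100.2 and Cpeb3 lowest at 3.96, and Pura, Fxr1 and Fmr1 overlap.

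The regulators' own mRNAs have long 3′ UTRs, where such proteins bind. In 9 of 10 members the 3′ UTR of the most abundant coding transcript was longer than the median of 1145 bases over 13028 tested genes. The letters TTTTAT or TTTTAAT, the core of the cytoplasmic polyadenylation element, were searched on the mRNA strand in the last 150 bases, and 1 of 10 members held them, beside 24.8% of those genes. That member was Fmr1. Over the whole 3′ UTR the element occurred 24 times in Cpeb2, 17 in Cpeb4, 12 in Pura and 6 in Cpeb3. It occurred 4 times each in Fmr1 and Cpeb1, 1 time each in Stau2 and Fxr1, and 0 times in Fxr2 and Stau1. Those counts were not set beside other genes. The Fmr1 site in the last 150 bases starts 35 bases before the transcript end and is shown with the element in capitals.
Fmr1 element: ctagatgtaaatTTTTATtaaaaagttgca
A poly(A) signal, AATAAA or ATTAAA, was found in the last 50 bases of all 10 members, beside 80.4% of those genes. The Pumilio element, searched on the same strand, was present in the whole 3′ UTR of 5 of 10 members (Fmr1, Cpeb1, Cpeb2, Cpeb3 and Pura), beside 27.1% of those genes, or 34.2% of those whose 3′ UTR was at least as long as the shortest of the members' (598 bases). Those 5 members had 3′ UTRs of 1313 to 4408 bases, and the part of that length in the count was not tested. All of these are matches of letters and not bound sites.

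Partners of the members were read from lists of related genes, none of which held a gene with an adjusted p under 0.05 in edgeR's fit of all 7 libraries. Of 13 FMRP partners, 0 were higher and 1 lower at an unadjusted p under 0.05, beside 5.86% and 8.7% of all genes. Their median log2 fold change was 0.07. The lower one was Ago1, an Argonaute of the microRNA pathway, with a log2 difference of -0.40 ± 0.15 (SE; adjusted p 0.280) that was -0.23 without vehicle replicate B and -0.25 with transcripts summed per gene. Of 15 genes that lengthen or shorten poly(A) tails with CPEB, 1 was higher and 1 lower, beside the same shares, with a median of 0.10. Cnot7, a deadenylase of the CCR4-NOT complex, was at 113 ± 10.5 CPM (SD, n = 4) against 90.4 ± 9.51 (SD, n = 3), a log2 difference of 0.32 ± 0.11 (SE; adjusted p 0.249) that was 0.11 after the GC and length correction. Pabpc1, the main cytoplasmic poly(A)-binding protein, was at 56.4 ± 4.41 CPM against 78.0 ± 21.9, a log2 difference of -0.47 ± 0.15 (SE; adjusted p 0.245) that was -0.21 without vehicle replicate B. Of 10 Staufen decay and exon junction genes, none had an unadjusted p under 0.05, beside 14.6% of all genes, and the median was 0.01.

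Of 29 other neuronal RNA granule genes tested, 2 were higher and 2 lower at an unadjusted p under 0.05, beside 5.86% and 8.7% of all genes. Their median log2 fold change was 0.09, and Igf2bp1 was too low to test. Elavl2, a neuronal HuB protein that steadies AU-rich mRNAs, was at 49.8 ± 3.85 CPM (SD, n = 4) against 38.0 ± 3.15 (SD, n = 3), a log2 difference of 0.39 ± 0.10 (SE; adjusted p 0.199, edgeR) that was 0.15 after the GC and length correction. Zc3h14, a poly(A)-binding zinc finger protein, had 0.28 ± 0.11 (SE; adjusted p 0.285), or 0.17 without vehicle replicate B and 0.09 after the correction. Elavl3, another Hu protein, had -0.51 ± 0.18 (SE; adjusted p 0.265), or -0.24 without vehicle replicate B. Purb, the paralogue of Pura, had -0.39 ± 0.13 (SE; adjusted p 0.256). Without vehicle replicate B, 1 of the 29 had an unadjusted p under 0.05 in edgeR, beside 6.46% of all genes. Without vehicle replicate E, 14 had, beside 25.7%.

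Of 22 mRNAs that textbooks name as targets or cargo of these proteins, 1 was higher and 7 lower at an unadjusted p under 0.05, with a median log2 fold change of -0.10. Over all genes tested, 5.86% were higher and 8.7% lower at that p. The list was chosen with earlier results of these data known, so these counts are descriptions. The median GC content of the 22 was 53.0%, above that of all genes tested. After the GC and length correction 5 of the 22 still had an unadjusted p under 0.05, beside 6.74% of all genes. Without vehicle replicate B 5 did, beside 6.46%. Rgs4, a brake on G protein signalling whose mRNA FMRP binds, was the higher one. It was at 208 ± 6.72 CPM (SD, n = 4) against 168 ± 12.6 (SD, n = 3), a log2 difference of 0.31 ± 0.09 (SE; adjusted p 0.218, edgeR) that was 0.12 after the GC and length correction. Of the lower ones, the postsynaptic scaffolds Shank1 and Shank3 had log2 differences of -0.77 ± 0.16 (SE; adjusted p 0.199) and -0.82 ± 0.22 (SE; adjusted p 0.205), and the dendritic Ddn had -0.69 ± 0.18 (SE; adjusted p 0.199). Without vehicle replicate B, Shank3 was at -0.48 and Ddn at -0.45; after the correction, Shank1 was at -0.38 and Shank3 at -0.50. Shank3 was at -0.11 (adjusted p 0.774) when its transcript counts were summed in place of the gene count. Without vehicle replicate E, 9 of the 11 list genes named here, all but Cnot7 and Zc3h14, had an adjusted p under 0.05 in edgeR (0.0148 to 0.0430). Of all genes, 944 of 14807 had one in that fit. Elavl2, Shank1, Ddn and Shank3 had one in DESeq2 and in limma-voom, and Rgs4 in limma-voom, fits that called 205 and 394 genes. The 11 were named for a small unadjusted p in these same libraries, so these counts are no separate support. Shank1, Shank3, Ddn, Cnot7, Zc3h14 and Purb share exonic bases with a gene on the opposite strand, and Elavl3 and Purb with one on their own strand.

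**Figure D5:**
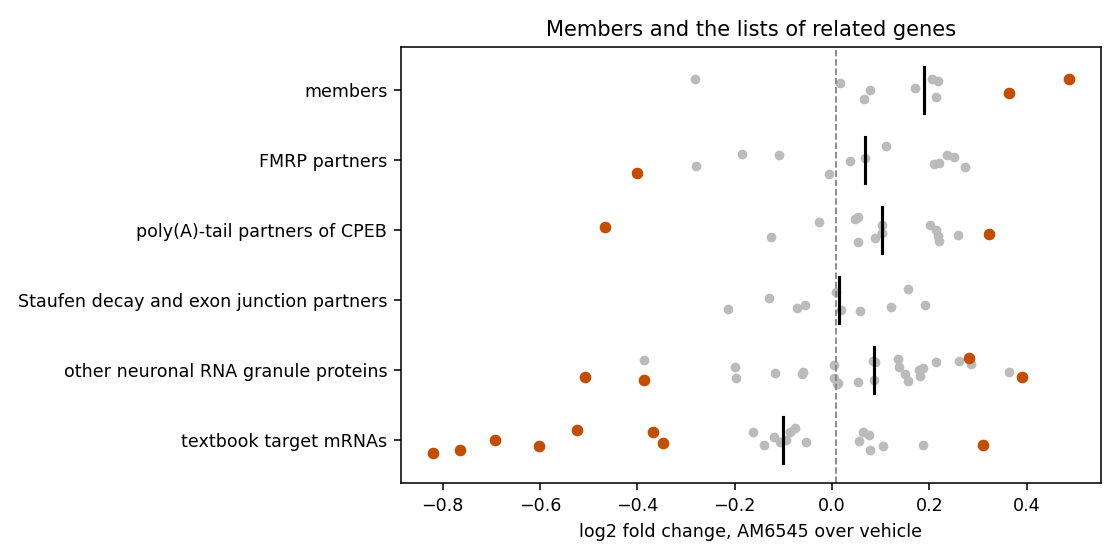
Log2 fold change of AM6545 over vehicle for each tested gene of the members and of 5 lists of related genes; orange points have an unadjusted p under 0.05 in edgeR, black ticks are list medians, and the dashed line is the median of all genes tested, 0.01. The members' median is 0.19 and that of the textbook target mRNAs is -0.10.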

How the data were processed

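The deposited tables hold estimated counts per gene and per transcript in 7 libraries, made by the authors with Salmon 1.5.2 and mm10, per the submitters' processing notes; RNeasy columns and SMARTer Ultra Low Input chemistry were used, per the labels' protocols. The annotation release and the use of strand are not given in the sources used here. Names, positions, sequences, lengths and GC content came from GENCODE M21 (GRCm38), which held 22148 of the gene identifiers; 22135 of these carry a higher version in the tables, so transcript models may differ from those counted.

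Counts were rounded and fitted with edgeR 4.0.16 (limma 3.58.1, R 4.3.3): TMM, filterByExpr, a robust quasi-likelihood fit on all 7 libraries, no covariates, Benjamini-Hochberg over all features, threshold 0.05. CPM are TMM-scaled. SE is the absolute log2 fold change over the square root of F. Transcript choice was tested with diffSpliceDGE. Counts per kilobase divide transcript counts by M21 length and scale each library to 1000000. Shares of coding stretches use transcripts that span them, where the mean share lay between 5% and 95%. One such stretch is not reported here. Copies were searched with blastn 2.17.0 (identity of at least 95% over 100 bases): no member had one in another gene, and Cnot7, Zc3h14, Elavl3 and Shank1 did.

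The code was tested on simulated data. No pair of libraries of the same group agreed within sampling noise, and pairs across the groups were not compared. All 10 members were named; of each list, up to 3 genes per direction by smallest unadjusted p under 0.05; and of a member's tested transcripts, the 2 with the most counts and those with an unadjusted p under 0.05. Members and lists were chosen with earlier results of these data known. Alternatives were other scalings (DESeq2 size factors, total counts, upper quartile), DESeq2 1.42.0, limma-voom with quality weights, other filters and fits, 1 surrogate variable (sva 3.50.0), a GC and length correction (lowess, span 0.3), the replicate letter as a block, and leaving out each library. The share per length and the shares without each library were added after seeing the data.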

Additional observations from a re-analysis of the deposited data

How the results depend on the processing

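The number of genes past the threshold, 1 in the fit reported, was 205 with DESeq2 (1989 genes had no adjusted p), 394 with limma-voom, 2 with a mean of at least 50 counts, 2 without robust estimation, 0 with 1 surrogate variable, 0 after the GC and length correction and 4 at an adjusted p under 0.1; leaving out a library gave 0 to 944, the highest without vehicle replicate E. Members past it numbered 0 but for 1 with limma-voom and 0 to 1 leaving out a library. Members with an unadjusted p under 0.05, 2 in the fit reported, were 4 with limma-voom, 1 after the GC and length correction, and 2 to 4 leaving out a library. The share of all genes, 14.6% in the fit reported, moved too. It was 23.9% with limma-voom, 6.74% after the correction and 6.46% to 25.7% leaving out a library. Fxr1 turned to -0.0202 with limma-voom, -0.0691 with the surrogate variable and -0.16 with the correction, and ran from -0.0411 to 0.0656 leaving out a library. Fxr2 turned to -0.0229 with the surrogate variable and ran from -0.00518 to 0.14. Cpeb4 turned to -0.0778 with the correction and ran from -0.0033 to 0.17. Transcripts past the threshold, 6 in the fit reported, were 10 with a mean of at least 50 counts, 431 with DESeq2 (1 of a member), 11 at an adjusted p under 0.1, and 1 to 14 leaving out a library. Genes with changed transcript choice, 62, were 22 with a mean of at least 50 counts and 69 to 162 leaving out a library; members among them were 0, but 1 at an adjusted p under 0.1 and 0 to 2 leaving out a library.

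Same-lettered libraries did not deviate together (r of -0.26, -0.13 and -0.18), while differently lettered ones ran from -0.17 to 0.22. So few values cannot tell whether the letters pair libraries. With the letter as a block, members with an unadjusted p under 0.05 were 1, beside 8.18% of all genes. With the correction too they were 0, beside 2.91%. Fxr1 was -0.012 with the block, or -0.19 with both, and Cpeb4 was -0.12 with both. With the block, transcripts past the threshold were 0, and 1 member (Fxr1, adjusted p 0.0234, diffSpliceDGE) changed in transcript choice. The cause of these shifts was not tested. In the order of members per length, all 10 kept their place leaving out any library but vehicle replicate B, without which 7 did, and 8 kept it with the longest transcript of each gene. Minor transcripts with few counts are estimates that can fall to 0.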

Other observations

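Across the 7 libraries, the gene that followed Fmr1 most closely was Zfp24, a zinc finger transcription factor (Pearson r of 0.992 of log2 CPM), and that of Cpeb1 was Cacnb2, a calcium channel subunit (0.995). For Stau1 it was the potassium channel subunit Kcnab1 (0.997), and for Pura it was Cdc26, of the anaphase-promoting complex (0.996). These values rest on libraries that share the same treatment contrast and, in vehicle replicate B, a library that stands apart, and they are given as descriptions.

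Of the 33 values compared within the 4 AM6545 libraries (members, named genes and shares of coding stretches), none had a library far from the other 3 by the gap test used.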
